A study of Mus musculus with 4 samples.

Results

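The genes described here drive or carry out cell division: 54 cell cycle and proliferation genes, made up of 13 genes of S phase, 36 genes of mitosis and 5 regulators of transcription or of the cycle, read in cultured mouse hippocampal neurons. A gene counted as measured where its FPKM (fragments per kilobase of transcript, scaled to sequencing depth, so a level per length) reached 1 in at least 1 of the 4 libraries, with rows of the same symbol summed. By that rule 50 of the 54 members were measured (13 of S phase, 32 of mitosis and all 5 regulators), among 13458 measured genes in tables of 22492 symbols. The 4 members that missed it were Cenpe, with a highest FPKM of 0.945, Mki67 with 0.917, Bub1 with 0.845 and Tpx2 with 0.163, and the lowest that passed were Mybl2 with 1.04 and Ttk with 1.11.

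Neurons from CD1 pups at postnatal day 0 were grown for 11 days in vitro and carried a lentivirus added on day 4. The vector groups received the empty pLKO.1 virus, which bears no hairpin against Kdm6b, and the shRNA groups a virus whose hairpin targets Kdm6b, a demethylase of histone H3 lysine 27, at the sequence ctgttcttgagggacaaactc. Each virus was read untreated and after 3 h with bicuculline (labelled 50 µm, read here as micromolar) plus 2.5 mM 4-aminopyridine, written Bic/4AP, a pair of drugs that block inhibition and potassium channels and so drive synchronous firing. All 4 groups were therefore infected, none was an uninfected culture, 1 hairpin sequence was used, and each group was 1 library of polyadenylated RNA, so that no difference below has a replicate check and no p-value is given.

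In a dividing cell, E2F factors switch on the genes that copy DNA at the start of S phase, and later the MuvB complex, with MYBL2 and FOXM1, switches on the genes that condense, align and separate the chromosomes. In resting cells the DREAM complex, which holds MuvB together with RB-like and E2F proteins, represses these genes. Neurons have left the cycle for good, progenitors and glia of the hippocampus can divide, and several S-phase proteins also serve DNA repair. Some regulators, among them CCNO and MYB, have a second role in multiciliated cells, which use parts of the mitotic machinery to build many centrioles without dividing.

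Kdm6b (chr11:69212020-69227177, mm9) checks the labels. Its FPKM was 6.74 with vector and 2.73 with shRNA in the untreated cultures, and 13.1 with vector and 4.83 with shRNA after Bic/4AP, so the target was at 0.406 and 0.368 of its vector level. The 4 libraries held 12976 to 13141 genes at an FPKM of 1 or more, and their relative depth, estimated from the deposited bounds, was 1 and 0.932 with vector and 1.04 and 0.994 with shRNA, the untreated library first in each case. For a member, the median distance from the value to its deposited upper bound ran from 10.3% to 14.9% of the value. These bounds cover counting and read assignment within a library and not the spread between cultures. Below, 4 values in a row are FPKM, first the vector cultures without and with Bic/4AP and then the shRNA cultures without and with it, and differences are of log2(FPKM + 1), a scale that understates the change of low genes.

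Mitotic genes stood higher with the Kdm6b hairpin in both states of activity, and S-phase genes did so less evenly. Over all 54 listed members, with no filter on level, 53 were above their vector value in the untreated cultures and 50 were so after Bic/4AP. All 36 mitotic genes were higher in both states, against 12 and 9 of the 13 S-phase genes, and the 5 regulators were higher in both. The summed FPKM of the measured mitotic genes was 60.7, 80.4, 133 and 142, which is 2.19 times the vector sum untreated and 1.76 times after Bic/4AP. That of the S-phase genes was 84.7, 202, 100.04 and 204, with ratios of 1.18 and 1.01. Among measured genes only, 49 and 46 of the 50 members were above vector, where 58.8% of all 13458 were untreated and 56.4% after Bic/4AP. Of these 50, 10 passed the level rule only through the shRNA libraries. In RNA from a whole culture, more cells of a type and more RNA per cell cannot be told apart.

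**Figure D1:**
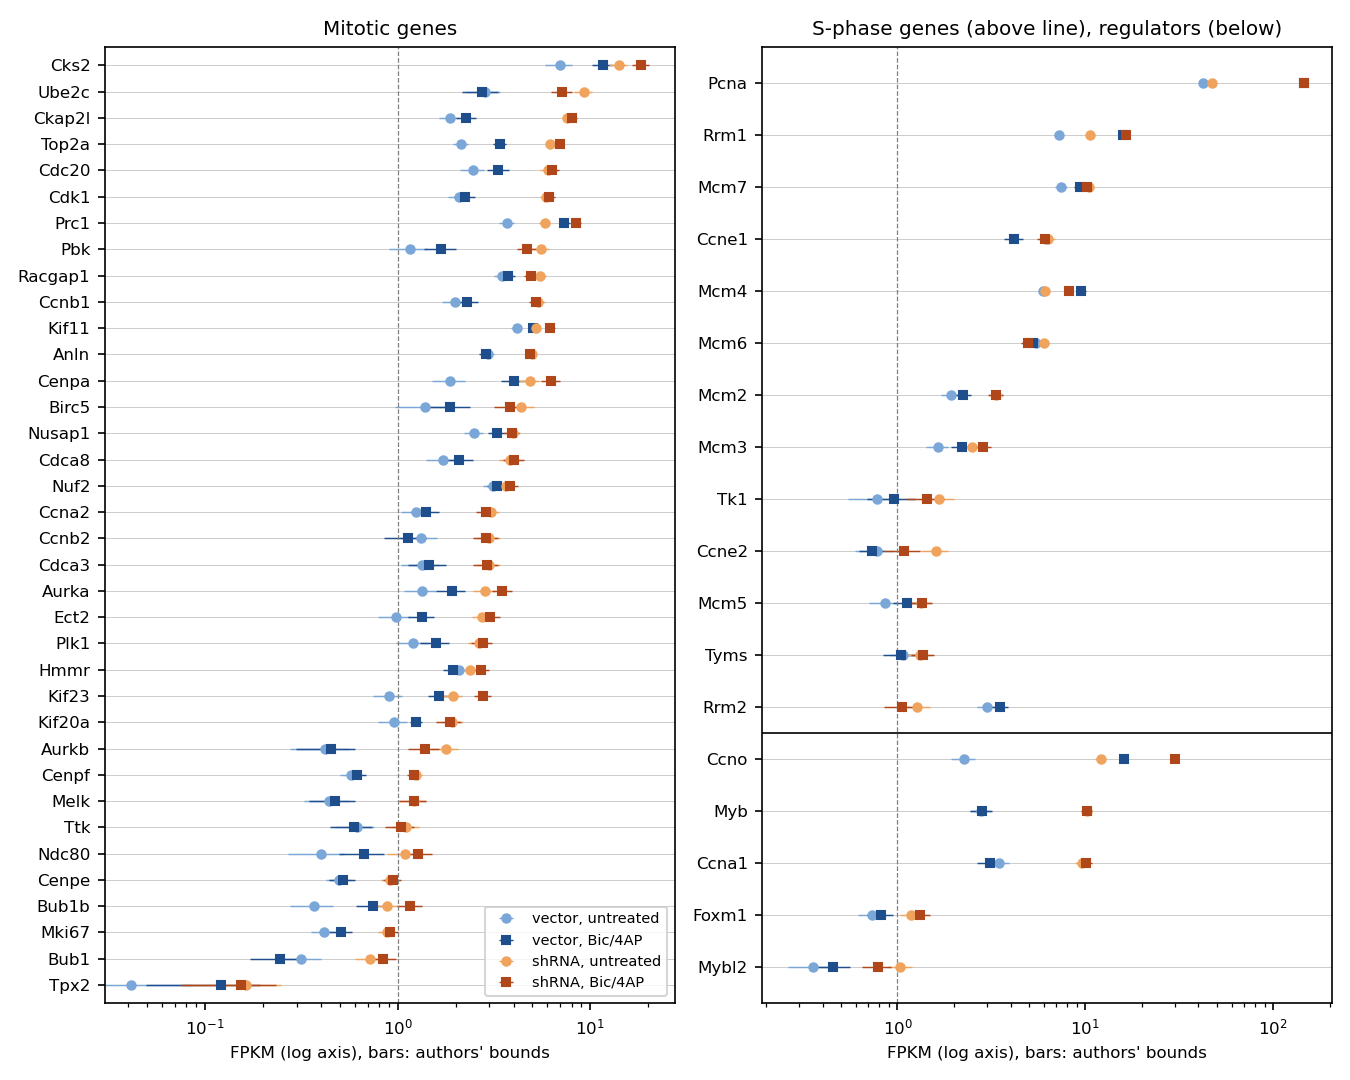
FPKM of every listed member (points, on a log axis) in the 4 libraries, with the deposited lower and upper bounds as bars and a dashed line at FPKM 1; mitotic genes on the left, S-phase genes and regulators on the right. In the mitotic panel both shRNA libraries lie to the right of both vector libraries for 35 of 36 genes, the exception being Prc1. Among the S-phase genes of the right panel, both shRNA libraries of Rrm2 lie to the left of both vector libraries.

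The mitotic kinase and its cyclins give the plainest case. Cdk1, the kinase that starts mitosis, stood at 2.09, 2.25, 5.92 and 6.13, and both shRNA libraries were above both vector libraries. Its difference between shRNA and vector was 1.16 untreated and 1.13 after Bic/4AP. Ccnb1, the cyclin B that activates it, stood at 1.99, 2.30, 5.36 and 5.25, with differences of 1.09 and 0.92. Ccnb2, a second cyclin B, stood at 1.32, 1.13, 2.98 and 2.88, and Ccna2, the cyclin of late S phase and G2, at 1.25, 1.41, 3.06 and 2.86, again without overlap of the groups. Cks2, a small subunit that binds cyclin-dependent kinases, had the highest level of the mitotic genes, at 6.95, 11.6, 14.1 and 18.3. It was also 1.68 times higher with Bic/4AP in the vector cultures, with bounds apart.

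The genes with the widest gaps were not all kinases. Ckap2l, a spindle protein of dividing neural progenitors, stood at 1.86, 2.28, 7.61 and 8.03, and its differences of 1.59 untreated and 1.46 after Bic/4AP corresponded to 4.08 and 3.53 times the vector FPKM. Pbk, a mitotic protein kinase, stood at 1.17, 1.69, 5.53 and 4.69, with differences of 1.59 and 1.08. Ube2c, the conjugating enzyme that feeds ubiquitin to the anaphase-promoting complex, stood at 2.83, 2.75, 9.24 and 7.14, with differences of 1.42 and 1.12. In these 3 genes the shRNA value was between 2.60 and 4.74 times the vector value of the same state. Top2a, the topoisomerase that untangles sister chromatids, stood at 2.13, 3.39, 6.19 and 6.94, with differences of 1.20 and 0.86. Cdc20, an activator of the anaphase-promoting complex, stood at 2.46, 3.34, 6.02 and 6.32, and its differences were 1.02 and 0.75.

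The chromosomal passenger complex corrects attachments of chromosomes to the spindle and then helps cut the cell. Its kinase Aurkb stood at 0.420, 0.450, 1.78 and 1.39, so it was under an FPKM of 1 in both vector libraries and above it in both shRNA libraries. Birc5, the survivin subunit, stood at 1.38, 1.86, 4.39 and 3.84, and Cdca8, the borealin subunit, at 1.73, 2.09, 3.84 and 4.03. Both shRNA libraries were above both vector libraries for each of the 3 subunits. Aurka, the kinase of the spindle poles, stood at 1.34, 1.91, 2.83 and 3.49, and Plk1, the polo kinase of mitotic entry and exit, at 1.21, 1.58, 2.66 and 2.76.

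Genes of the kinetochore, the spindle and the checkpoint had gaps of different size. Cenpa, the histone variant that marks centromeres, stood at 1.87, 4.00, 4.85 and 6.27, and Ndc80, which grips microtubules, at 0.400, 0.671, 1.09 and 1.27. Nuf2, the partner of Ndc80 in the same complex, stood at 3.14, 3.26, 3.64 and 3.85. The groups did not overlap, but the deposited bounds did, and the difference for Nuf2 was only 0.16 untreated and 0.18 after Bic/4AP, against 0.58 and 0.44 for Ndc80. Hmmr, a spindle assembly factor, had the smallest untreated difference of the mitotic members, 0.13, from 2.09, 1.95, 2.38 and 2.73. Bub1b, a checkpoint kinase-like protein, stood at 0.370, 0.749, 0.883 and 1.17, and Ttk, the kinase that starts the checkpoint, at 0.615, 0.593, 1.11 and 1.04.

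Genes of cytokinesis and of the spindle midzone spanned a range of gaps. Anln, a scaffold of the contractile ring, stood at 2.96, 2.88, 4.97 and 4.88, and its difference was 0.59 untreated and 0.60 after Bic/4AP. Ect2, which switches on RhoA at the cell equator, stood at 0.980, 1.34, 2.74 and 3.04, with differences of 0.92 and 0.79, while Racgap1, its partner at the midzone, stood at 3.50, 3.74, 5.50 and 4.94. Kif11, the motor that pushes spindle poles apart, stood at 4.18, 5.08, 5.23 and 6.20, and was 1.25 and 1.22 times its vector value. Prc1, which bundles midzone microtubules, was the mitotic member whose groups overlapped: its FPKM was 3.71, 7.33, 5.80 and 8.48, so that vector Bic/4AP lay above untreated shRNA. The 4 mitotic genes under the level rule also had both shRNA values above both vector values, with Mki67, the marker of cycling cells, at 0.413, 0.510, 0.877 and 0.917. Of these 4, Tpx2 was near the floor, at 0.0413, 0.121, 0.163 and 0.155, with overlapping bounds in every comparison.

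These counts were read against all genes. Both shRNA libraries were above both vector libraries for 35 of 36 mitotic genes, 7 of 13 S-phase genes and 4 of 5 regulators with no filter. With genes held to a mean FPKM of at least 1 over the 4 libraries, the counts were 26 of 27, 7 of 13 and 3 of 4, where 26.9% of all 13117 such genes met the same condition. Both shRNA libraries were below both vector libraries for 1 member, Rrm2, where 15.8% of genes met that condition. The rule of FPKM 1 in any library matters here, since 10 of the 50 members that passed it were under 1 in both vector libraries and none was under 1 in both shRNA libraries. The median mitotic difference was 0.67 untreated and 0.58 after Bic/4AP over all 36 genes, and 0.83 and 0.67 over the 27 with a mean of at least 1, beside medians of 0.05 and 0.03 over all genes with such a mean.

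By the size of the gap, 12 of the 50 measured members were at least 2-fold higher with shRNA on the log2(FPKM + 1) scale in the untreated cultures, where 0.409% of all measured genes were. They were the mitotic genes Birc5, Ccnb1, Cdc20, Cdk1, Cenpa, Ckap2l, Pbk, Top2a and Ube2c and the regulators Ccna1, Ccno and Myb. After Bic/4AP the 6 members past the same limit were Ccna1, Cdk1, Ckap2l, Myb, Pbk and Ube2c, where 0.186% of genes were past it. With genes held to a mean FPKM of at least 1 over the 4 libraries, the counts stayed at 12 and 6. These counts rest on the pseudocount of 1. With 0.1 in its place 28 members were 2-fold higher untreated, where 1.14% of genes were, and 13 after Bic/4AP, where 0.788% were. The 28 include Aurkb, Bub1b, Cenpf, Melk, Mybl2, Ndc80 and Tk1, which passed the level rule only through the shRNA libraries, where they are high. The 13 include Aurkb and Melk, to which the same limit applies. With 5 the counts were 1 (Ccno) and 0, where 0.0817% and 0.0297% of genes were. On the scale with 1, no member was 2-fold lower untreated, against 0.661% of genes, and Rrm2 was so after Bic/4AP, against 0.528%. Untreated, Rrm2 was at 0.421 of its vector FPKM and passed the same limit with a pseudocount of 0.1, where 1.12% of genes did. By the deposited bounds, 43 members lay above vector with bounds apart in the untreated cultures and 1 below, where 32.8% and 22.0% of all measured genes did. Among the 43 are all 10 members that were under an FPKM of 1 in both vector libraries and so passed only through the shRNA libraries. After Bic/4AP, 39 lay above and 2 below (Mcm4 and Rrm2), where 28.2% and 20.9% of genes did. Among the 39 are Aurkb, Bub1b, Ccne2, Cenpf, Foxm1, Melk, Mybl2, Ndc80 and Ttk, which also passed only through the shRNA libraries. With no filter, 46 of the 54 members lay above and 1 below untreated, and 42 and 2 after Bic/4AP.

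**Figure D2:**
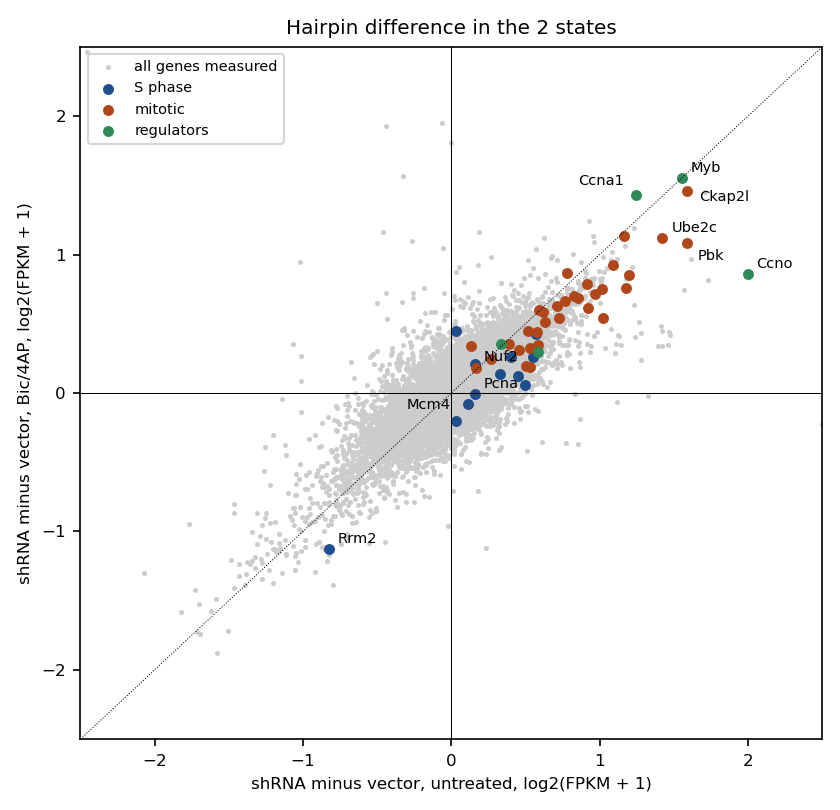
Difference of shRNA minus vector in log2(FPKM + 1) in the untreated cultures (x) and after Bic/4AP (y); each point is a gene, with the 50 measured members coloured, all measured genes in grey (4 points fall outside the axes) and a dotted line of equal difference. The 32 mitotic genes lie in the upper right quadrant and Rrm2 in the lower left.

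The comparisons of shRNA with vector in the 2 states share no library, and the same mitotic members stood high in each. Over the 50 measured members Pearson's r between the untreated and Bic/4AP differences was 0.889 and Spearman's rho 0.898, and over the 32 mitotic genes 0.904 and 0.905. Over the 13 S-phase genes r was 0.855 and rho 0.538, with the same sign in 10. Over all 13458 genes r was 0.723 and rho 0.747. These describe genes within 4 libraries, which are not independent replicates, and the 2 vector libraries carry the same virus, as do the 2 shRNA libraries.

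The start regions of the mitotic genes hold a shared set of letters. Of the 54 members, 46 had an entry among promoters of RefSeq (GRCm38.p6), given as windows of 300 bases from 250 before to 50 after the start. Those with no entry were Aurkb, Ccna2, Ccne2, Foxm1, Kif20a, Mcm4, Pbk and Tpx2. The CHR, the element through which DREAM and MuvB bind mitotic genes, was searched as TTTGAA or TTCGAA, the CCAAT box, bound by NF-Y, as CCAAT, and the E2F site as TTTCCCGC or TTTGGCGC or TTTCGCGC, on both strands, where none of these contains another and overlapping matches count separately. Printed here from 120 bases before to 30 after the start are the 4 mitotic members with the widest untreated gap among those with both a CHR near the start and a CCAAT box, and the S-phase member with the most E2F matches, all chosen after their values were seen. Capitals mark the matches. On the other strand a CHR reads TTCAAA and a CCAAT box reads ATTGG, while an E2F site can read GCGCGAAA. Ckap2l is at chr2:129297183-129297332 (minus strand), Ube2c at chr2:164769809-164769958 (plus), Top2a at chr11:99024160-99024309 (minus), Cdk1 at chr10:69352883-69353032 (minus) and Mcm6 at chr1:128359676-128359825 (minus).
Ckap2l: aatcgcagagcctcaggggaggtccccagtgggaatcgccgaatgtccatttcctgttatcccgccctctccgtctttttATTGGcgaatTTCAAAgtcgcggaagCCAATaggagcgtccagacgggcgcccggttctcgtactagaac
Ube2c: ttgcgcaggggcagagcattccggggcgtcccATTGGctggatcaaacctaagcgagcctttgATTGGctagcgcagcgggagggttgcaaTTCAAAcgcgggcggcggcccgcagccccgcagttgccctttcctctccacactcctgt
Top2a: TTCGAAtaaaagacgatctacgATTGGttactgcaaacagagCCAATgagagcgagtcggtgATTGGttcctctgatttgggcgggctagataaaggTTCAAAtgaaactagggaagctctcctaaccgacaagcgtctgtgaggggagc
Cdk1: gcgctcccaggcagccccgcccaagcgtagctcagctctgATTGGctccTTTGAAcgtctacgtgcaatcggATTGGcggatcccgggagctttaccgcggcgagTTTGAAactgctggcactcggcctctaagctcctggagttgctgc
Mcm6: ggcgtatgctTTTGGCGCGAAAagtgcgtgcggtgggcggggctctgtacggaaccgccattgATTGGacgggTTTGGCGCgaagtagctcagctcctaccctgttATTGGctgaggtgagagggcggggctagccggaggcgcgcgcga

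In each of the 4 mitotic windows a CHR begins within 30 bases before the start, and each holds 2 or 3 CCAAT boxes in the stretch shown, of which 1 in Ckap2l, at -14, lies nearer the start than the CHR. The CHR of Cdk1 begins at -15, that of Top2a at -23, that of Ube2c at -29 and that of Ckap2l at -30, counting the start as 0. A CHR lay anywhere in 26 of 34 windows of mitotic members (76.5%) and in 2 of 12 windows of S-phase members (16.7%), against 19.2% of 32851 windows of all genes and 13.0% of those of measured genes. Between -60 and the end of the window, it lay in 25 of the 34 mitotic windows and 0 of the 12 S-phase windows, against 5.90% of all windows. The E2F letters showed the reverse, with a match in 4 of 12 S-phase windows (33.3%), 1 of 34 mitotic windows and 1.84% of all windows, and Mcm6 held 3, the first pair overlapping. CCAAT boxes were common to both, in 82.4% of mitotic and 75.0% of S-phase windows against 37.4% of all. A match is a run of letters and not a bound site. Within the mitotic genes those with and without a CHR had gaps of like size: the median untreated difference was 0.72 (0.13 to 1.59) in the 22 measured genes that held one and 0.77 (0.16 to 1.18) in the 6 that did not.

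S-phase genes differed among themselves in sign as well as size. The subunits of the MCM helicase, which unwinds DNA at replication forks and works as a ring of 6 different proteins, differed in their gaps. Mcm2 stood at 1.93, 2.22, 3.34 and 3.33, Mcm3 at 1.64, 2.20, 2.49 and 2.84, and Mcm7 at 7.42, 9.31, 10.5 and 10.2, and for these the groups did not overlap. Mcm5 stood at 0.856, 1.13, 1.33 and 1.35, also without overlap. After Bic/4AP, however, the deposited bounds of shRNA and vector overlapped for Mcm5 and Mcm7. Mcm6, printed above, stood at 5.47, 5.25, 5.99 and 4.92, and Mcm4 at 5.97, 9.53, 6.13 and 8.14. For Mcm4 the shRNA value was 1.03 times vector untreated and 0.854 times after Bic/4AP, where the bounds lay apart.

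Nucleotide supply showed both signs. Tk1, the thymidine kinase of the salvage pathway, stood at 0.782, 0.959, 1.67 and 1.44, and Tyms, which makes thymidylate, at 1.07, 1.05, 1.32 and 1.37 with overlapping bounds. Rrm1, the large subunit of ribonucleotide reductase, stood at 7.24, 15.9, 10.6 and 16.5. Rrm2, the S-phase small subunit of the same enzyme, was the member that ran the other way: it stood at 3.00, 3.49, 1.26 and 1.06, so both vector libraries were above both shRNA libraries. Its differences were -0.82 and -1.13, or 0.421 and 0.303 of the vector FPKM, with bounds apart in both states. Of the E-type cyclins that open S phase, Ccne2 stood at 0.776, 0.734, 1.60 and 1.08, and Ccne1 at 6.18, 4.17, 6.34 and 6.07. Ccne1 was level between the viruses untreated, with a difference of 0.03, and 0.45 higher with shRNA after Bic/4AP, since its vector value was lower with Bic/4AP.

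The 5 regulators fell into a low pair and a high trio. Foxm1, the forkhead factor of late-cycle genes, stood at 0.735, 0.817, 1.19 and 1.32, and Mybl2, the MYB protein of the MuvB complex, at 0.355, 0.452, 1.04 and 0.786. Myb, a relative of Mybl2 used by progenitors and by cells that become multiciliated, stood at 2.79, 2.81, 10.2 and 10.2, with differences of 1.56 and 1.55 and Bic/4AP responses of 0.01 with vector and 0.00 with shRNA. Ccna1, a cyclin A best known from the germ line, stood at 3.46, 3.10, 9.60 and 10.05, with differences of 1.25 and 1.43. Ccno (chr13:113778010-113780986, mm9), a cyclin-like protein needed to multiply centrioles in multiciliated cells, stood at 2.26, 16.0, 12.1 and 29.9. Its untreated gap of 2.003, or 5.34 times, had the highest ratio of the measured members, and its groups overlapped because the vector value after Bic/4AP lay above that of untreated shRNA.

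After Bic/4AP some members stood higher, few of them by 2-fold. In the vector cultures 43 of the 54 listed members were above their untreated value and in the shRNA cultures 31. Of the 50 measured members 40 and 28 were, where 40.6% and 34.8% of all measured genes were. At least 2-fold higher were 3 of 50 measured members with vector (Ccno, Pcna and Rrm1) and 2 with shRNA (Ccno and Pcna), where 2.18% and 2.06% of genes were. None was 2-fold lower in either background, where 0.267% and 0.156% of genes were. These 2-fold cases were 6.0% and 4.0% of the measured members. By the deposited bounds, 16 of 50 members lay above their untreated value in the vector cultures, 10 of them mitotic, and 1 below (Ccne1), where 21.5% and 36.4% of all measured genes did. In the shRNA cultures 10 lay above, 6 of them mitotic, and 3 below (Ccne2, Mcm6 and Ube2c), where 16.9% and 37.3% of genes did.

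Pcna, the sliding clamp of DNA polymerases in replication and repair, stood at 42.3, 146, 47.5 and 146. It was 3.45 times higher with Bic/4AP in the vector cultures and 3.07 times in the shRNA cultures, whereas its shRNA value was 1.12 times vector untreated and 0.996 times after Bic/4AP. Pcna alone made up 50.0%, 72.3%, 47.4% and 71.4% of the summed FPKM of the S-phase genes, and without it that sum was 42.3, 55.9, 52.6 and 58.4. Rrm1 was 2.20 times higher with Bic/4AP in the vector cultures and 1.56 times in the shRNA cultures. Ccno was 7.08 times higher with vector and 2.47 times with shRNA. Among mitotic genes Prc1 had the widest responses, 0.82 and 0.48, ahead of Cenpa with 0.80 and 0.31 and Cks2 with 0.67 and 0.36.

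**Figure D3:**
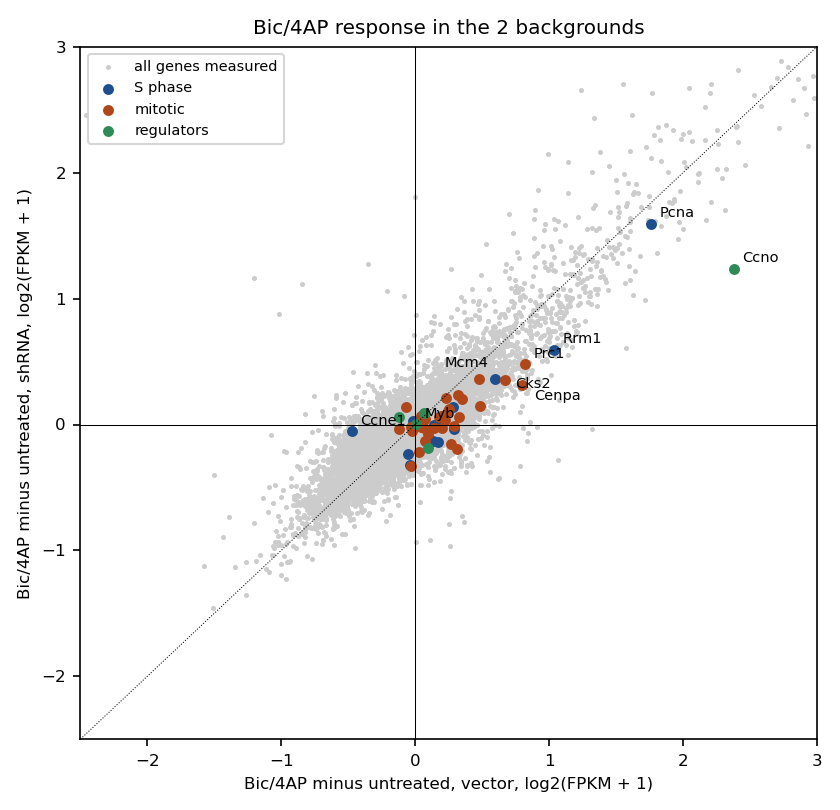
Difference of Bic/4AP minus untreated in log2(FPKM + 1) in the vector cultures (x) and the shRNA cultures (y); each point is a gene, with the 50 measured members coloured, all measured genes in grey (28 points fall outside the axes) and a dotted line of equal response. Pcna and Ccno lie far to the upper right, Ccno under the line, while most members lie near 0.

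The response of a member tended to be smaller in the shRNA cultures. The difference of the responses, shRNA minus vector, was below 0 for 42 of 50 measured members, with a median of -0.14 for mitotic and -0.19 for S-phase genes. Of all measured genes 45.1% were above 0 and their median was -0.02. Of the 50 members, 10 passed the level rule only through the shRNA libraries, and all of these but Foxm1 were below 0. The mitotic and S-phase medians were -0.13 and -0.19 with no filter, and -0.17 and -0.19 with a mean FPKM of at least 1. By construction the difference of the responses is the same quantity as the change in the shRNA gap between the states, since it uses all 4 libraries. It was widest for Ccno, at -1.14, followed by Pbk at -0.51, Cenpa at -0.49 and Rrm1 at -0.44, and it was 0.42 for Ccne1 and 0.21 for Hmmr. The median response of the S-phase genes in the shRNA cultures was -0.01, and its sign changed to 0.06 with scaling by median ratios and to 0.03 with upper-quartile scaling. The responses in the 2 backgrounds share no library, and over the 50 members Pearson's r was 0.886 and Spearman's rho 0.639, against 0.862 and 0.8004 over all genes.

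Genes of the pathway outside the 54, from lists also made with earlier results known, are described next. Of 50 other mitotic genes, 47 were above vector untreated and 47 after Bic/4AP, 40 of them with bounds apart in each state, and the median over the 36 measured was 0.49 and 0.37. The widest untreated gaps were those of Spc25, a subunit of the Ndc80 complex, at 3.80, 5.30, 8.54 and 9.53, Cep55, which leads the last step of cell separation, at 0.520, 0.766, 1.79 and 1.54, Fam64a at 0.883, 0.858, 2.43 and 2.11, and Pttg1, the securin that holds sister chromatids until anaphase, at 9.45, 12.7, 17.96 and 20.8. The smallest were those of Psrc1 (-0.08) and Ccnf (-0.13). Of 40 other S-phase genes 35 were above vector untreated and 29 after Bic/4AP, 14 and 11 with bounds apart, with medians of 0.21 and 0.10 over the 35 measured. Of those 35, 30 and 24 were above vector, where 58.8% and 56.4% of all measured genes were. Bounds were apart and higher for 12 and 9 of them, near the shares of all measured genes, 32.8% and 28.2%. In the 36 measured other mitotic genes they were so for 28 and 29. Untreated and after Bic/4AP, 22 and 24 of these reached an FPKM of 1 with vector, and 35 and 36 with shRNA. Cep55 and Fam64a passed the level rule only through the shRNA libraries, where they are high. The medians of the other mitotic genes were 0.45 and 0.35 with no filter, and 0.50 and 0.36 with a mean FPKM of at least 1. Hells, a chromatin remodeller, stood at 1.05, 1.34, 1.87 and 2.22, Gmnn, which blocks a second round of replication, at 2.39, 1.90, 3.75 and 3.72, and the chromatin assembly subunits Chaf1b and Chaf1a had gaps of 0.49 and 0.41. Fen1, the flap nuclease, stood lowest at -0.09.

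Cyclins, kinases and inhibitors of G1 and their E2F partners were read as a further list. Of these 32 genes 25 were above vector untreated and 23 after Bic/4AP, with medians of 0.17 and 0.12 over the 29 measured. Of those 29, 22 and 21 were above vector, where 58.8% and 56.4% of all measured genes were. E2f7, a repressor among the E2F factors, stood at 0.207, 0.428, 1.35 and 1.54, the widest gap of that list at 0.96. Ccnd2, a cyclin D of neural progenitors, stood at 70.6, 74.4, 96.0 and 101, far above all mitotic members per length, and Cdkn1b, the inhibitor p27, at 38.8, 52.0, 52.7 and 68.2, so an inhibitor of the cycle was higher with shRNA as well. Cdk6 stood at 0.585, 0.856, 1.13 and 1.54. E2f7 and Cdk6 passed the level rule only through the shRNA libraries, where they are high. At the other end Cdkn1c, the inhibitor p57, stood at 2.28, 2.12, 1.56 and 1.34 and Cdc25a, a phosphatase that activates the kinases, at 2.49, 2.07, 2.04 and 1.88, both with overlapping bounds untreated.

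**Figure D4:**
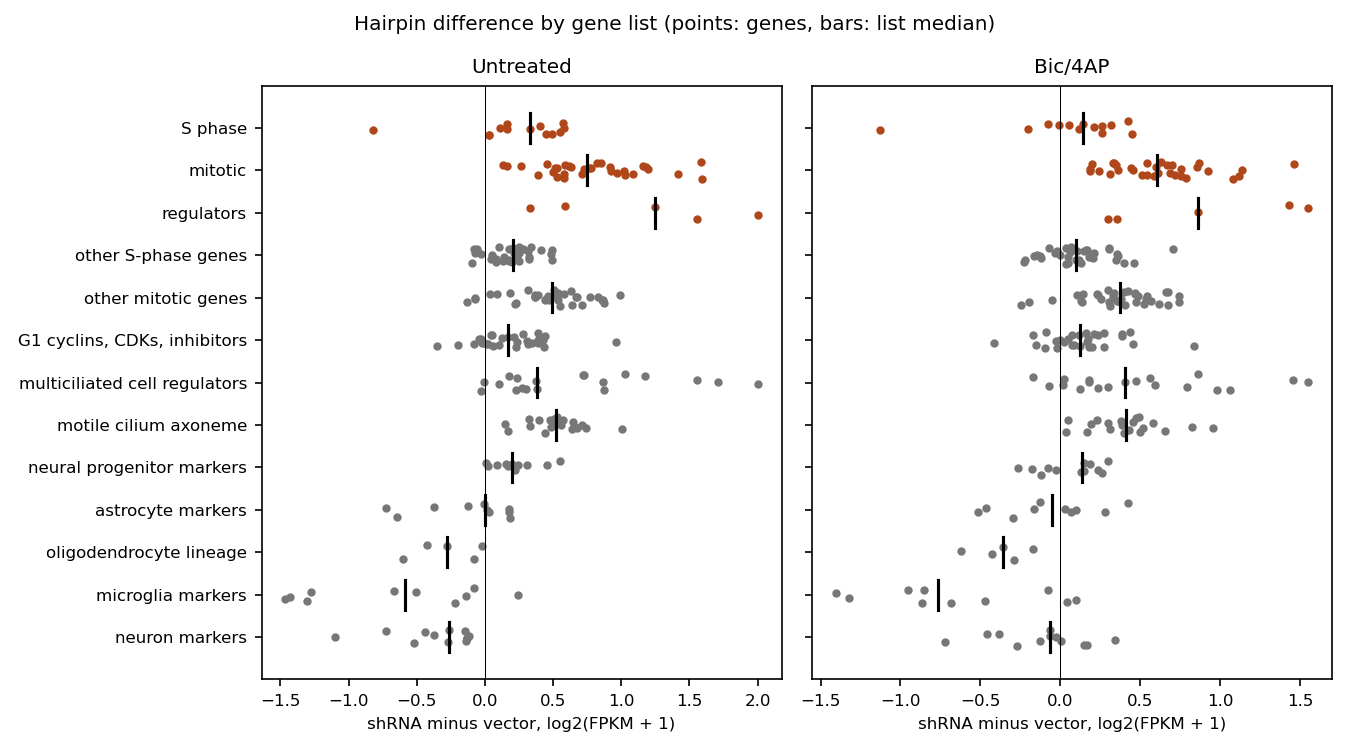
Difference of shRNA minus vector in log2(FPKM + 1), untreated (left) and after Bic/4AP (right); each point is a measured gene, each row a list, members in orange and other lists in grey, with vertical bars for list medians. Mitotic members and other mitotic genes lie to the right, with untreated medians of 0.75 and 0.49. Microglia and oligodendrocyte lineage markers lie to the left in both panels. Neuron markers lie to the left untreated, with a median of -0.27, and near 0 after Bic/4AP, with a median of -0.06.

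Ccno and Myb belong to a programme of multiciliated cells, and its other genes were read too. Of 19 regulators of that programme with a row, the 2 members and E2f4, E2f5 and Tfdp1 from the G1 list among them, 17 were above vector in each state, with medians of 0.39 and 0.41. Of all measured genes 58.8% and 56.4% were above vector, with medians of 0.05 and 0.03. Over the regulators with a mean FPKM of at least 1 the medians were 0.38 and 0.30. Mcidas, which starts the programme, is in the tables under its older symbol Gm6320 and lies 3089 bases from Ccno on chromosome 13. It stood at 0.853, 0.715, 5.06 and 3.70, with no gain under Bic/4AP, unlike its neighbour Ccno. Ccdc67, now Deup1, a scaffold of the bodies that make new centrioles, stood at 4.06, 4.38, 10.4 and 10.2. Plk4, the kinase that starts a centriole in cycling and multiciliated cells alike, stood at 2.06, 2.09, 5.22 and 5.11. Gmnc, listed as Gm606, stood at 2.25, 1.22, 4.38 and 1.95, and Foxn4 at 0.152, 0.179, 1.099 and 1.04. Mcidas and Foxn4 passed the level rule only through the shRNA libraries, where they are high. Stil, a centriole assembly protein, stood at 0.337, 1.25, 1.45 and 2.32, and Trp73 at 1.796, 1.44, 3.60 and 2.68. Foxj1, the master factor of motile cilia, was already high with vector, at 166, 173, 205 and 196. The remaining regulators in that list with bounds apart and higher untreated were Cep152, Ccdc78, Rfx2, Rfx3 and E2f5, with gaps of 0.23 to 0.39, and Sass6, Tfdp1, Cep63 and E2f4 had overlapping bounds.

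**Figure D5:**
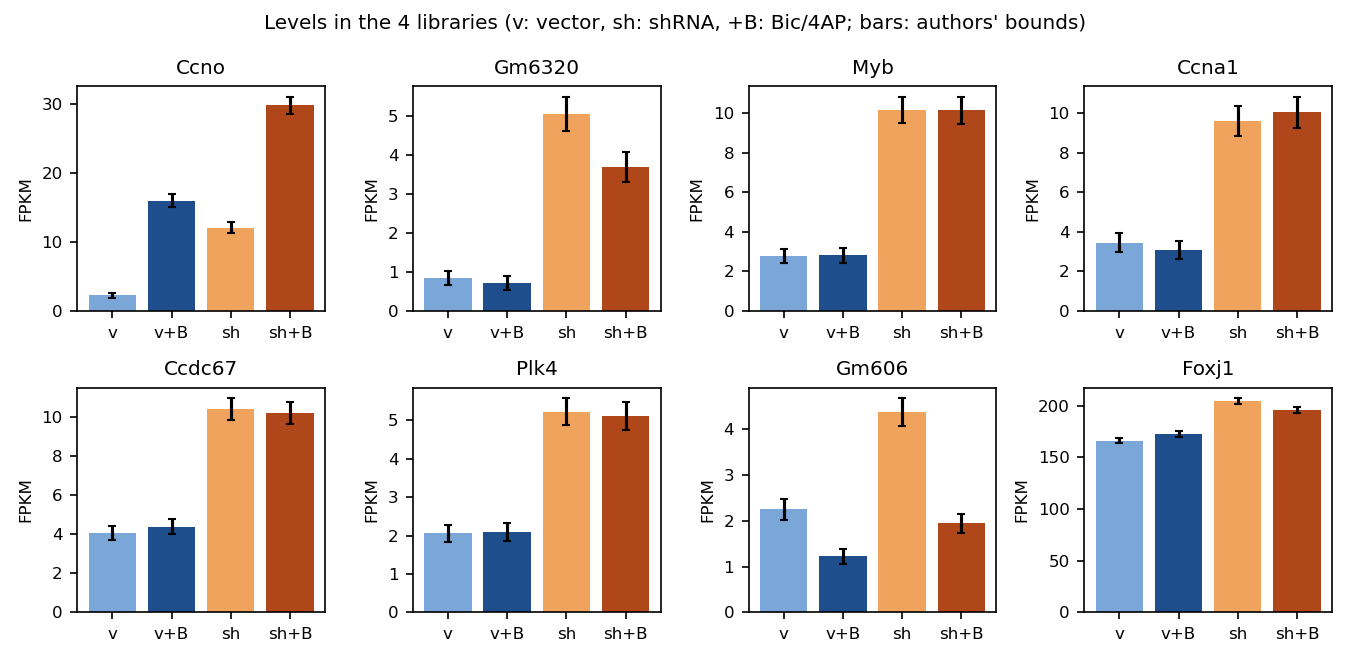
FPKM (bars, from 0) of 3 regulators among the members (Ccno, Myb and Ccna1) and 5 other genes of the multiciliated programme in the 4 libraries, with the deposited bounds as error bars; v is vector, sh is shRNA and +B is Bic/4AP. Ccno is higher with both shRNA and Bic/4AP, whereas Myb, Ccna1, Ccdc67 and Plk4 are higher with shRNA and have overlapping bounds between treatments.

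Structural genes of the motile cilium were also higher: all 20 with a row, of 28 listed, were above vector in both states, 19 and 17 with bounds apart, and their summed FPKM was 466, 527, 678 and 692. Of all measured genes 58.8% and 56.4% were above vector, and 32.8% and 28.2% were so with bounds apart. Both shRNA libraries were above both vector libraries for all 20, and for 42 of 50 other mitotic, 22 of 40 other S-phase, 12 of 32 G1 and 10 of 19 multiciliated regulator genes. With genes held to a mean FPKM of at least 1, the counts were 20 of 20, 23 of 31, 18 of 35, 9 of 28 and 8 of 17. Of all genes with such a mean 26.9% met the same condition, and the G1 count lay near that share. Dnaic2, a dynein chain, stood at 9.38, 10.2, 19.8 and 18.8, and Rsph1, of the radial spoke, at 82.1, 86.3, 138 and 136. This list is not part of the division cycle, and its part in the mitotic result was not tested.

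The cultures held markers of several cell types, and the levels of some differed between the viruses. Beside the counts below, 58.8% of all measured genes were above vector untreated and 56.4% after Bic/4AP. Neuron markers were at 2328, 2196, 1917 and 2090 in sum, all 12 below vector untreated and 8 of 12 after Bic/4AP. Of astrocyte markers all 10 were measured, at 2903, 3112, 2792 and 3139 in sum with Gfap at 1514 to 1767, and 5 of 10 were above vector in each state. Neural progenitor markers, 12 of 15 measured, summed to 2418, 3207, 2729 and 3172. All 12 were above vector untreated and 7 after Bic/4AP, with medians of 0.20 and 0.14, while Neurog1 was listed at 0 in the 4 libraries and Eomes was under 0.1 in each. The progenitor count after Bic/4AP, 58.3%, lay near the share of all measured genes. By the deposited bounds 9 progenitor markers lay above and 0 below untreated, and 5 above and 4 below after Bic/4AP. Microglia markers, 10 of 11 measured, summed to 73.6, 76.8, 40.8 and 42.4, with 1 above vector untreated. Oligodendrocyte lineage markers, 5 of 9, summed to 84.9, 93.0, 73.4 and 70.1, with 0 above. Fibroblast and mural markers, 7 of 9, summed to 87.7, 96.8, 73.3 and 70.9, with 1 above untreated. Endothelial markers, 3 of 8, summed to 28.1, 39.4, 34.8 and 34.2, with all 3 above vector untreated and the defining Cldn5 and Tek under 0.1 in the 4 libraries. The part of any of these cell types in the levels of the cell cycle genes was not tested.

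Reads of 8 members may be shared with a neighbour, since their loci overlap that of another symbol and whether counting used strand is not given in the sources used here. They are Ccne2 with Ints8, Mcm7 with Mir106b, Mir25 and Mir93, Tk1 with Afmid, Ccna2 with Exosc9, Cdc20 with Elovl1, Kif20a with Brd8 and Cdc23, Nusap1 with Oip5, and Foxm1 with 4933413G19Rik. Cdk1, Ckap2l, Pbk, Ube2c, Top2a, Myb, Ccna1, Ccno and Rrm2 had no such neighbour.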

How the data were processed

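PolyA RNA of 4 cultures was read, 1 library per group (TruSeq kit, per the labels' protocols). The authors deposited FPKM per gene with a lower and an upper bound, per the file headers; per the submitters' processing notes, tools were Cufflinks 2.0.2, TopHat2 2.0.8b and CASAVA 1.8 with build mm9, while the role of each and the annotation are not given in the sources used here. The tables hold 22878 rows in differing order, so rows were joined by symbol, locus and start-site identifier and summed per symbol. Small RNA genes and symbols with a failed row in any library were left out, which left 21720 genes. No member had more than 1 row or a failed row. Starts count from 0 in the files (583 of 613 microRNA genes, 95.1%, had end minus start equal to their RefSeq length) and are written from 1 here.

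A gene was measured at FPKM 1 or more in 1 library. Differences are of log2(FPKM + 1), with a pseudocount of 1, and 2-fold means a difference of at least 1; bounds are apart where the lower bound of 1 library exceeds the upper bound of the other. With 1 library per group there is no test. Depth is relative, from the width of the bounds at FPKM 5 or more, because no read totals were used here; intervals cover counting error only. Any measured member could be named; of other lists, the 4 widest and 2 smallest untreated gaps, all measured multiciliated regulators, and Kdm6b. Genes named beyond that rule (Gfap and the defining markers near 0) were chosen after their values were seen. Members, the 12 other lists and the promoters printed were chosen with earlier results of these data known. The calculation was checked on simulated data. Python 3.11.15, pandas 2.3.3, numpy 2.4.6 and matplotlib 3.10.9 were used. Alternatives were pseudocounts of 0.1 and 5, no filter, FPKM 5, a mean FPKM of at least 1, 3 scalings of the libraries, the highest row per symbol, and small RNA genes kept.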

Additional observations from a re-analysis of the deposited data

How the results depend on the processing

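Each group was 1 library, so leaving out a library was not possible, and differences between cultures cannot be told apart from those of the treatments. No paired analysis was possible because there is 1 library per group and the labels give no replicate numbers. Under the alternatives, 174 values moved little, and scaling moved the median of all genes by at most 0.08. Most low genes depend on the pseudocount. With 0.1, the median gap of shRNA over vector was 0.494 (S phase) and 1.1 (mitotic) untreated and 0.854 (mitotic) after Bic/4AP; 28 members were 2-fold higher and 1 lower untreated, 13 higher after Bic/4AP, and the mitotic difference of responses was -0.263. With 5, the vector response was 0.0657 (S phase) and 0.0733 (mitotic), the gap 0.148 and 0.324 untreated and 0.293 (mitotic) after Bic/4AP, the difference of responses -0.0428 (mitotic), and 1 member was 2-fold higher untreated and 0 higher or lower after Bic/4AP. With FPKM of at least 5 (6 S-phase and 12 mitotic members), the S-phase response was 0.445 with vector and 0.161 with shRNA, where the sign turned; the gap was 0.136 (S phase) and 1.06 (mitotic) untreated, 0.0247 and 0.805 after Bic/4AP, with 0 members 2-fold lower, and the mitotic difference of responses was -0.283. The S-phase response with shRNA also turned sign when libraries were scaled by median ratios (0.0607) or upper quartiles (0.0337), for which the cause was not tested. The filter on mean FPKM was chosen after seeing the data and changed none of these directions.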
